A study of Homo sapiens with 6 samples.

Results

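The genes described here encode 10 transporters that carry amino acids across the plasma membrane, of 19775 genes with a probe set of their own on the array. They were chosen by function: the heavy chain SLC3A2, the large neutral amino acid carriers SLC7A5, SLC7A8 and SLC43A1, the glutamine carriers SLC1A5, SLC38A1 and SLC38A2, the carriers of small neutral amino acids SLC1A4 and SLC6A9, and the cationic amino acid carrier SLC7A1. All 10 were measured, by 27 probe sets in all, where a probe set is a group of short probes against one stretch of transcript. The study asked how non-small cell lung cancer cells survive a targeted drug, and measured mRNA on 6 microarrays. The 3 arrays of drug-tolerant persisters (DTPs) held PC9 cells with a GFP vector, exposed to 2 µM erlotinib for 9 days and collected on day 10. The 3 arrays of parental cells held the same line with the same vector, given the solvent DMSO and, according to the protocol, collected on day 3 at 100% confluency. The design text of the series gives both groups the same length of treatment, so the duration of the DMSO culture is not settled. PC9 is an established lung adenocarcinoma line that carries an activating EGFR mutation, and erlotinib inhibits the EGFR kinase. DTPs are the minority of cells that survive the drug, so selection among cells cannot be told apart from a change inside them. In these bulk RNA samples, fewer cells of a kind and less of an RNA per cell cannot be told apart either. The sample records do not say whether replicates came from separate cultures, so p-values measure the spread between these samples, which may be technical.

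Cells take up the essential amino acids and much of their glutamine through these proteins. SLC7A5 (LAT1) and SLC7A8 (LAT2) are light chains that reach the cell surface bound to SLC3A2 (CD98 heavy chain), and SLC7A5 is known for importing leucine in exchange for intracellular glutamine. Leucine and arginine inside the cell activate the growth kinase complex mTORC1 at the lysosome. Many of these genes are known targets of ATF4, a transcription factor whose translation increases when amino acids are short, and several are known targets of MYC. In tumours, SLC7A5, SLC3A2 and SLC1A5 are often abundant.

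The promoters were read for response elements, a feature that the choice by function did not use directly. Many of these genes were already known as ATF4 targets, and they were chosen with earlier results of these data known. The motif counts are therefore descriptions. RefSeq promoter windows (GRCh38.p14, 250 bases before to 50 bases after each annotated start) matched all 10 genes, with 20 windows because some genes have several starts. Each window was searched on both strands for TGATGNAA, the core of the C/EBP-ATF response element, for CACGTG, the E-box that MYC and other factors bind, and for TGACNNNGC, the core of the antioxidant response element. No matches in the 10 genes overlapped each other. TGATGNAA was found in 5 of the 10 genes, against 4.46% of the 27305 genes with a window. It was found in 5 of their 20 windows, against 3.62% of the 35116 windows. The 5 sites are shown because ATF4, which binds this element, is among the genes measured here, with the match in capitals and each sequence written on the strand of its gene:
SLC1A4, chr2:64989381-64989410, plus strand: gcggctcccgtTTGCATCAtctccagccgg
SLC1A5, chr19:46784893-46784922, minus strand: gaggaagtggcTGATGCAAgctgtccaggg
SLC38A1, chr12:46266502-46266531, minus strand: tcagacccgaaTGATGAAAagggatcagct
SLC3A2, chr11:62881719-62881748, plus strand: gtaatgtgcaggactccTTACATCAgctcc
SLC7A1, chr13:29595663-29595692, minus strand: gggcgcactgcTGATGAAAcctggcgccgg

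In SLC1A4 and SLC3A2 the match lay on the strand opposite to the gene. Relative to the start of its window, the match began at -7 in SLC1A4, -97 in SLC1A5 and -4 in SLC38A1. It began after the start in SLC3A2 (38) and SLC7A1 (8). The SLC1A5 match lay in the window of a different annotated start from that of its TGACNNNGC match. CACGTG was found in 4 of the 10 genes, against 8.77% of genes, and in 4 of their 20 windows, against 7.26% of windows. The related light chains SLC7A5, which was called lower, and SLC7A8, which was not called, both hold one. Their sites are shown with that of SLC43A1, the other carrier of large neutral amino acids here, which makes 3 of the 4 sites, with the match in capitals:
SLC7A5, chr16:87869619-87869648, minus strand: gccggacgacgCACGTGctccgagctgggc
SLC7A8, chr14:23154504-23154533, minus strand: acaattagaaaCACGTGctcagttccttcc
SLC43A1, chr11:57515796-57515825, minus strand: agcgggcgagtCACGTGcgcgtgaaactcg

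Counted from the start site, the E-box began at position -130 in SLC7A5 and at position -129 in SLC7A8. TGACNNNGC was found in 4 of the 10 genes, SLC1A5, SLC3A2, SLC7A1 and SLC7A5, against 16.1% of genes. It was found in 4 of their 20 windows, against 13.3% of windows. A gene with several windows has more chances of a match than a gene with 1. A match describes letters in a window and not a bound site.

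Of the 10 transporter genes, 9 were lower in DTPs than in parental cells, 0 were higher, and SLC7A8 was not called. The brightest probe set stood for each gene, passing over _x_at sets, which can bind related transcripts, where the gene had others. A gene was called when its adjusted p in limma (Benjamini-Hochberg over all genes) was under 0.05 and its fold change over 1.5. Over all 19775 genes, 6.13% were called lower and 8.08% higher by that rule. The median log2 fold change, DTPs minus parental cells, was -1.18 over the 10 genes and -0.05 over all genes. Every DTP array lay below every parental array for 9 of the 10 genes, which was so for 29.8% of all genes. Values are log2 units after RMA, a scale on which 1 unit is a doubling and on which changes of dim genes are understated. The arrays give no levels that can be set against each other between genes, and their normalization removes any difference in total mRNA per cell.

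**Figure D1:**
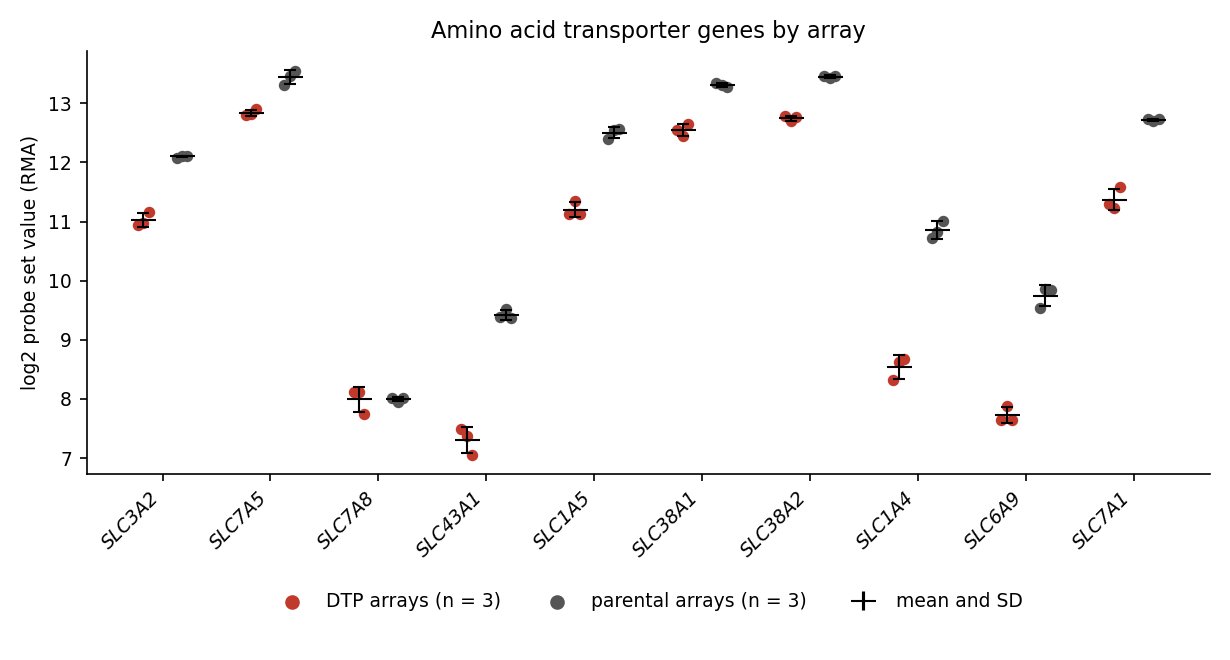
Log2 RMA value of the probe set standing for each of the 10 transporter genes (y axis) on each array, with 3 DTP arrays in red to the left of 3 parental arrays in grey; horizontal bars are means and whiskers SDs. The DTP points lie below the parental points in 9 genes and among them in SLC7A8.

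SLC3A2, the heavy chain that carries its partners to the membrane, measured 10.94, 10.98 and 11.17 in DTPs, against 12.08, 12.11 and 12.11 in parental cells. The 3 parental arrays were nearly equal and the groups were clearly apart. The log2 fold change was -1.07 ± 0.07 (SE, n = 3 each), which is 2.10-fold lower in DTPs (limma adjusted p = 1.22e-07).

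SLC7A5, the main leucine importer of many tumours, measured 12.79, 12.82 and 12.90 in DTPs, against 13.31, 13.46 and 13.55 in parental cells. The groups did not overlap, but with the probe sets used here this was the smallest change among the 9 called genes. It was not the smallest with the mean of all probe sets (-0.56 for SLC38A1) or with the brightest of any kind (-0.48 for SLC38A2). The log2 fold change of SLC7A5 was -0.60 ± 0.08 (SE, n = 3 each), 1.52-fold lower in DTPs, with a 95% interval of -0.77 to -0.44 (limma adjusted p = 3.04e-05). The fold lay just past the minimum of 1.5, and without DTP replicate 1 (-0.58) or parental replicate 3 (-0.55) SLC7A5 was no longer called.

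SLC7A8, the related exchanger of large and small neutral amino acids, measured 8.12, 8.12 and 7.75 in DTPs, against 8.01, 7.96 and 8.01 in parental cells. The parental values lay within the range of the DTP values. The log2 fold change was 0.00 ± 0.09 (SE, n = 3 each), with a 95% interval of -0.20 to 0.21 (limma adjusted p = 0.978), so a change of SLC7A8 beyond that interval in either direction was not seen.

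SLC43A1 (LAT3), which lets branched-chain amino acids, methionine and phenylalanine pass without exchange, measured 7.49, 7.37 and 7.06 in DTPs, against 9.38, 9.51 and 9.37 in parental cells. In DTPs it lay close to 7.29, the median of all probe set values, and in parental cells well above it. The log2 fold change was -2.12 ± 0.10 (SE, n = 3 each), which is 4.34-fold lower in DTPs (limma adjusted p = 3.46e-09).

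Among the glutamine carriers, SLC1A5 (ASCT2), a sodium-dependent exchanger of neutral amino acids, measured 11.12, 11.35 and 11.14 in DTPs, against 12.39, 12.55 and 12.56 in parental cells. The SLC1A5 values of the groups were over 1 log2 unit apart. Its log2 fold change was -1.30 ± 0.08 (SE, n = 3 each), 2.46-fold lower in DTPs (limma adjusted p = 4.96e-08).

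SLC38A1 (SNAT1) couples the uptake of glutamine and alanine to sodium, and measured 12.54, 12.45 and 12.66 in DTPs, against 13.34, 13.32 and 13.27 in parental cells. SLC38A2 (SNAT2), which does the same and is known to be induced when amino acids are short, measured 12.78, 12.70 and 12.77 in DTPs, against 13.47, 13.43 and 13.46 in parental cells. Both genes were lower on every DTP array, by amounts that were close to each other. SLC38A1 was 1.69-fold lower in DTPs (log2 fold change -0.76 ± 0.07, SE, n = 3 each, limma adjusted p = 2.36e-06). SLC38A2 was 1.63-fold lower in DTPs (log2 fold change -0.70 ± 0.06, SE, n = 3 each, limma adjusted p = 1.73e-06). The 2 genes are neighbours on chromosome 12, and the next coding gene after SLC38A2 is SLC38A4, a related carrier with a dim probe set (4.51 in DTPs and 4.57 in parental cells) and a log2 fold change of -0.06 (limma adjusted p = 0.651).

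With the probe set used here, the largest change of the group was that of SLC1A4 (ASCT1), which exchanges alanine, serine, cysteine and threonine. It measured 8.31, 8.63 and 8.67 in DTPs, against 10.73, 10.82 and 11.02 in parental cells. SLC1A4 was 4.98-fold lower in DTPs (log2 fold change -2.32 ± 0.10, SE, n = 3 each, limma adjusted p = 1.86e-09) and ranked 56 of 19775 genes from the most lowered. The log2 fold change of SLC1A4 was -1.58 with the mean of its probe sets and -2.01 with the brightest of any kind, both smaller than those of SLC43A1 and SLC6A9. Without DTP replicate 1 it was -2.20, against -2.21 for SLC43A1.

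SLC6A9 (GlyT1), the sodium- and chloride-coupled glycine transporter, measured 7.65, 7.88 and 7.64 in DTPs, against 9.54, 9.86 and 9.84 in parental cells. Like SLC43A1, it came near the array median in DTPs alone. SLC6A9 was 4.08-fold lower in DTPs (log2 fold change -2.03 ± 0.10, SE, n = 3 each, limma adjusted p = 4.25e-09).

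SLC7A1 (CAT1), which takes up arginine, lysine and ornithine and needs no heavy chain, measured 11.30, 11.24 and 11.58 in DTPs, against 12.74, 12.70 and 12.73 in parental cells. Its DTP values were more spread than its parental values, and all were lower. SLC7A1 was 2.55-fold lower in DTPs (log2 fold change -1.35 ± 0.09, SE, n = 3 each, limma adjusted p = 6.61e-08).

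In order of the size of the change, with these probe sets, SLC1A4, SLC43A1 and SLC6A9 came first, with 95% intervals that overlapped one another. SLC7A1, SLC1A5 and SLC3A2 came next, then SLC38A1, SLC38A2 and SLC7A5, and neighbours within each trio again had overlapping intervals. The interval of SLC6A9 lay wholly below that of SLC7A1, and the interval of SLC7A5 wholly below that of SLC7A8. Those of SLC3A2 (-1.232 to -0.91) and SLC38A1 (-0.915 to -0.601) overlapped slightly, so their trios were not set apart there.

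Over all 27 probe sets of the 10 genes, 19 were called lower, 0 were called higher and 8 were not called, against 4.93% called lower and 7.56% called higher of all 54613 probe sets. Their log2 fold changes ranged from -2.32 to 0.20. All 5 probe sets of SLC7A1 were called lower, from -1.55 to -0.75. Of the 5 probe sets of SLC1A4, 4 were called lower, and the fifth gave -0.25 with both group means below the array median. For SLC38A1, 3 of 4 were called lower, and the other, again below the array median in both groups, gave 0.02. For SLC38A2, 2 of 3 were called lower, and the other gave -0.48. That set and the called set at -0.67 are both _x_at sets, which can bind related transcripts. None of the 5 probe sets of SLC7A8 was called, with values from -0.07 to 0.20. Those at -0.07, 0.095 and 0.20 had both group means below the array median. Probe sets of 1 gene measure the same RNA and are not replicates of each other.

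**Figure D2:**
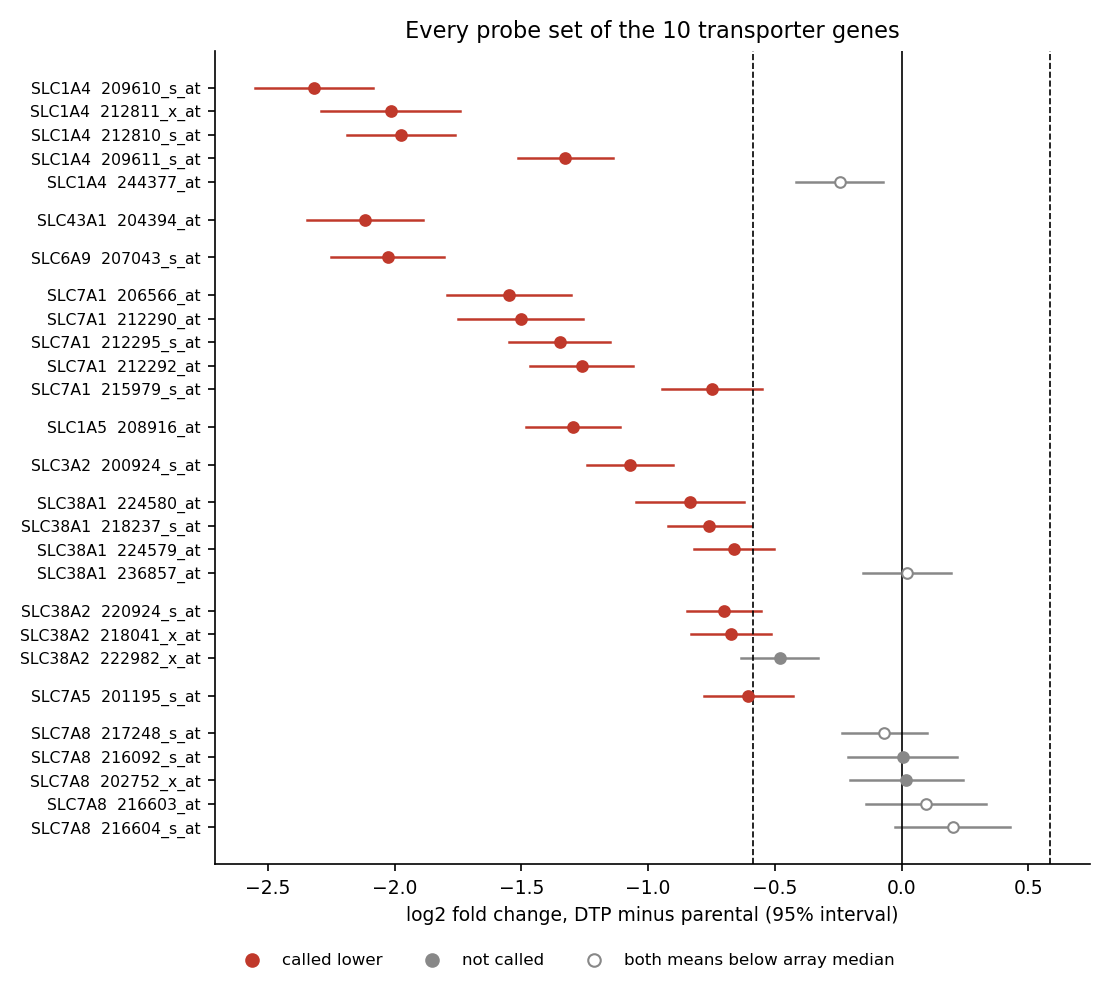
Log2 fold change (x axis, DTP minus parental) with its 95% interval for each of the 27 probe sets of the 10 transporter genes (y axis), red where called lower and grey where not called; open points are probe sets with both group means below the array median, and dashed lines mark a fold of 1.5. The 19 called probe sets lie left of the lower line, and the 5 of SLC7A8 lie around 0.

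To determine whether related members changed by different amounts, the difference between a pair of genes was taken on each array and compared between DTPs and parental cells in a two-sided exact permutation test. With 3 arrays against 3 the smallest p possible is 0.1, so no pair could pass a threshold of 0.05, and p-values were adjusted over the 4 pairs. SLC7A8 minus SLC7A5 was -4.84 ± 0.27 in DTPs and -5.45 ± 0.13 in parental cells (SD, n = 3 each, exact p = 0.1, adjusted p = 0.133), a shift of 0.61 with no overlap between groups. SLC1A4 minus SLC1A5 was -2.66 ± 0.18 in DTPs and -1.64 ± 0.09 in parental cells (SD, n = 3 each, exact p = 0.1, adjusted p = 0.133), a shift of -1.02. With the mean of all probe sets in place of 1 per gene, that shift was -0.28. SLC3A2 minus SLC7A5 was -1.81 ± 0.06 in DTPs and -1.34 ± 0.11 in parental cells (SD, n = 3 each, exact p = 0.1, adjusted p = 0.133), a shift of -0.47 between 1 probe set of each gene. SLC38A1 minus SLC38A2 shifted by -0.06 with overlapping groups (n = 3 each, exact p = 0.4, adjusted p = 0.4).

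The other amino acid transporters of the plasma membrane had a median close to that of all genes. Of 28 other plasma membrane amino acid transporter genes, 27 were measured: 3 were called lower, 3 higher and 21 neither, with a median log2 fold change of -0.06, against -0.05 over all genes. The shares called over all genes were 6.13% lower and 8.08% higher. For 15 of these 27, both group means lay below the array median. The genes called lower were SLC7A11 and SLC1A3, a glutamate transporter of the EAAT family, at -1.39, and SLC1A6, another of that family, at -1.05. For SLC1A3, 1 of 2 probe sets was called, the other gave -0.17, and their mean gave -0.78. The genes called higher were SLC7A7, SLC1A1 (EAAT3, which takes up glutamate and cysteine) at 1.40, and SLC7A6 at 0.89. SLC7A6 and SLC1A6 were named after their values were seen.

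Several of these genes pair with SLC3A2. SLC7A11 (xCT), which imports cystine and exports glutamate, measured 11.92, 11.85 and 12.07 in DTPs, against 13.53, 13.56 and 13.48 in parental cells. It was 2.98-fold lower in DTPs (log2 fold change -1.58 ± 0.07, SE, n = 3 each, limma adjusted p = 3.34e-09). SLC7A7 (y+LAT1), which exchanges cationic for neutral amino acids and sodium, measured 10.88, 11.18 and 11.24 in DTPs, against 8.30, 8.09 and 8.46 in parental cells. SLC7A7 went in the opposite direction to its heavy chain and was 7.03-fold higher in DTPs (log2 fold change 2.81 ± 0.11, SE, n = 3 each, limma adjusted p = 5.06e-10). SLC7A6 (y+LAT2), a close relative with the same kind of exchange, measured 9.69, 9.66 and 9.84 in DTPs, against 8.96, 8.79 and 8.78 in parental cells, and was 1.85-fold higher in DTPs (limma adjusted p = 1.01e-06). SLC7A10, a carrier of small neutral amino acids, was dim in both groups (6.55 in DTPs and 6.73 in parental cells) and was not called (limma adjusted p = 0.118). Of the 6 light chains named here, 2 were thus lower in DTPs, 2 were higher and 2 were not called.

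**Figure D3:**
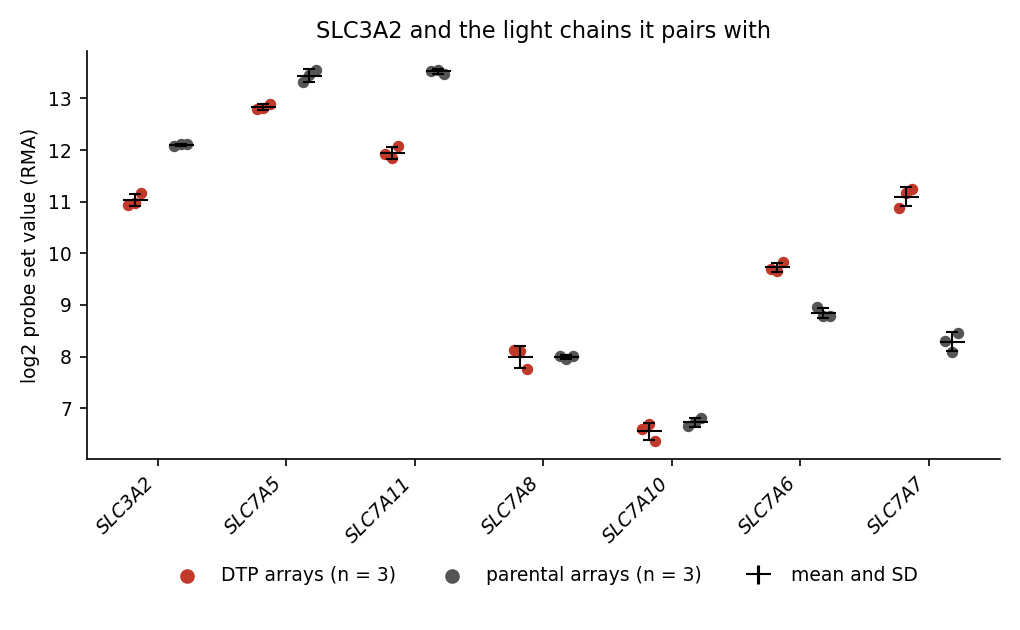
Log2 RMA value (y axis) of the heavy chain gene SLC3A2 and 6 light chain genes on each array, with 3 DTP arrays in red to the left of 3 parental arrays in grey; bars are means and whiskers SDs. SLC3A2, SLC7A5 and SLC7A11 were lower in DTPs, SLC7A6 and SLC7A7 higher, and SLC7A8 and SLC7A10 overlapped.

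Genes that act on the transporters were examined next. Of 18 genes that regulate transporter transcription or turnover, 10 were called lower, 2 higher and 6 neither, with a median log2 fold change of -0.78. Over all genes, 6.13% were called lower and 8.08% higher, with a median of -0.05. The list mixes genes that raise transporter amounts with genes that lower them, so its counts give no direction for the transporters. ATF4 mRNA measured 12.79, 12.80 and 12.93 in DTPs, against 13.88, 13.84 and 13.89 in parental cells, and was 2.04-fold lower in DTPs (limma adjusted p = 8.29e-08). ATF4 is known to be controlled mainly in translation, which these arrays do not measure. TRIB3, an ATF4 target that feeds back on it, gave -2.84 ± 0.10 and CEBPG, a dimer partner of ATF4, gave -1.57 ± 0.09 (SE, n = 3 each, limma adjusted p = 2.79e-10 and 1.85e-08).

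MYC measured 11.72, 11.55 and 11.75 in DTPs, against 13.16, 13.04 and 13.01 in parental cells, and was 2.63-fold lower in DTPs (limma adjusted p = 1.38e-08). SGK1, a kinase known to restrain the ubiquitin ligase NEDD4L and to raise the surface amount of several transporters, measured 11.66, 11.43 and 11.45 in DTPs, against 9.10, 8.90 and 9.02 in parental cells. It was 5.68-fold higher in DTPs (limma adjusted p = 1.33e-10). NEDD4L had a log2 fold change of -0.40 ± 0.07 (SE, n = 3 each, limma adjusted p = 0.00075), below the fold minimum, and was not called. Of its 6 probe sets, 1 was called lower, at -1.06, and 2 had the opposite sign, up to 0.13.

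**Figure D4:**
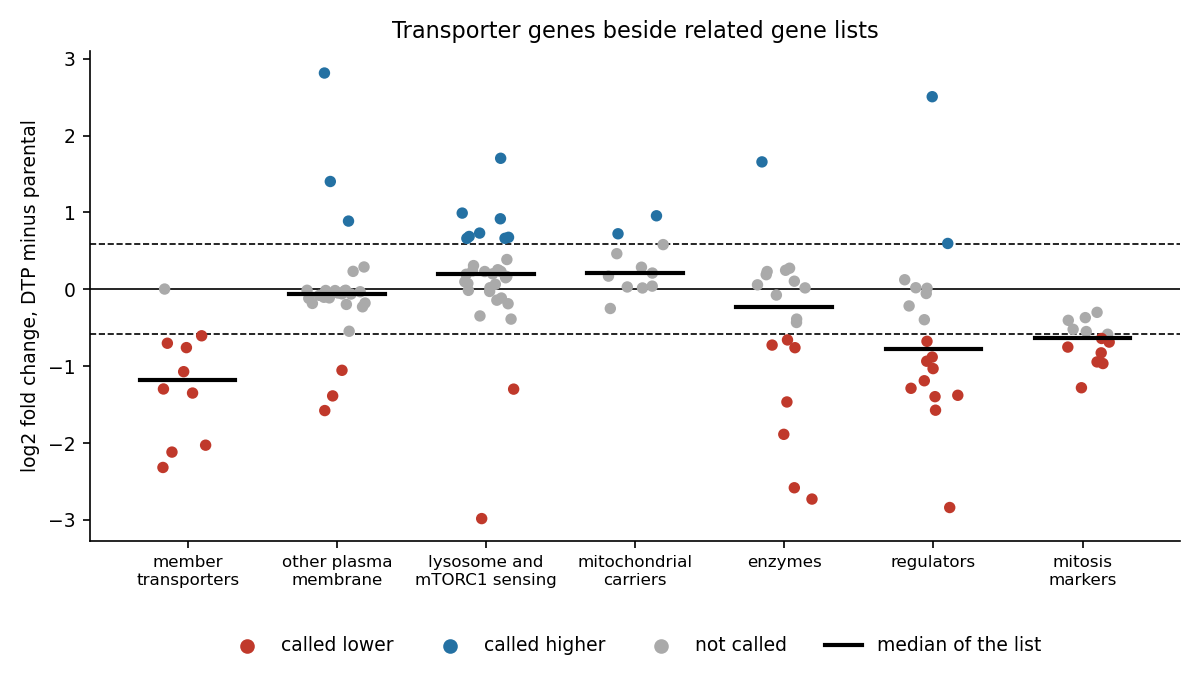
Log2 fold change (y axis, DTP minus parental) of each measured gene in 7 lists, with red for called lower, blue for called higher and grey for not called; thick bars are list medians and dashed lines mark a fold of 1.5. The 10 transporter genes have a median of -1.18, the 27 other plasma membrane transporters one of -0.06.

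Markers of dividing cells moved with the groups. Of 13 mitosis genes, 7 were called lower in DTPs and 0 higher, and all 13 were lower on every DTP array than on any parental array. Over all genes, 6.13% were called lower, 8.08% were called higher and 29.8% were lower on every DTP array. The mean level of the mitosis genes lay between 10.17 and 10.50 in DTPs and between 10.91 and 11.03 in parental cells, with a median log2 fold change of -0.64. The most lowered were NDC80 (-1.28), a kinetochore protein, the checkpoint kinase BUB1 (-0.97), the cyclin CCNB2 (-0.94) and the spindle kinase AURKA (-0.83). With the mean of all probe sets of a gene, BUB1 (-0.43), CCNB2 (-0.29) and AURKA (-0.55) were not called. The part of slower division in the lower transporter mRNA was not tested. The same holds for culture time, which differed between groups as the protocol gives it. The part of confluency was not tested either, and it is given at different stages: at harvest (100%) for parental cells and at drug start (80%) for DTPs.

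Markers of the labelled epithelial type and of other cell types were measured, each against itself between groups, since levels of different probes cannot be compared. The mean level of 7 epithelial markers lay between 13.65 and 13.69 in DTPs and between 13.48 and 13.51 in parental cells. The means of 8 fibroblast markers (7.30 to 7.41 in DTPs, 7.01 to 7.09 in parental cells), of 4 leukocyte markers (6.68 to 6.85 in DTPs, 6.67 to 6.72 in parental cells) and of 4 endothelial markers (8.07 to 8.24 in DTPs, 8.30 to 8.42 in parental cells) were also taken. At least 1 of the 2 group means reached the array median for all 7 epithelial, 4 of 8 fibroblast, 2 of 4 leukocyte and 4 of 4 endothelial markers. Called among these markers were KRT7, an epithelial keratin, at 0.97 (0.38 and not called with the mean of its probe sets), the fibroblast marker COL1A1 at 2.67 (1.51 with that mean, with single probe sets from -0.12 to 2.67), and the endothelial marker PECAM1 at -0.69 (-1.29 with that mean, 4 of 5 probe sets called lower). No leukocyte marker was called, with CD14 at 0.34 and ITGAM at 0.16, although 1 of 2 probe sets of ITGAM was called higher. The part of these markers in the transporter results was not tested. RNA quality, read as the log2 difference of 3′ and 5′ control probe sets, was -0.18 in DTPs and -0.15 in parental cells for GAPDH, and 0.06 in DTPs and 0.17 in parental cells for ACTB. Both shifts, of -0.02 and -0.11, separated the groups fully (two-sided exact permutation p = 0.1 each, n = 3 each, the smallest possible), and their part in the results was not tested. Correlations between arrays lay between 0.9968 and 0.9979 within groups and between 0.9702 and 0.9755 across them, and by these no array stood apart. Leaving out DTP replicate 3 gave 1352 lower and 1552 higher genes, against 1212 and 1597 with all arrays. It also gave 10 mitosis genes lower, against 7.

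Of the 10 transporter genes, 6 were called lower under each of 18 alternative settings: SLC1A4, SLC43A1, SLC6A9, SLC7A1, SLC1A5 and SLC3A2. SLC7A5 was not called in 6 of the 18, with log2 fold changes from -0.67 to -0.46. SLC38A2 was not called in 4 (-0.72 to -0.48) and SLC38A1 in 2 (-0.81 to -0.56). SLC7A8 was called in none (-0.06 to 0.15). Centring the arrays on 52 genes of the cytosolic ribosome, or else on 18 hybridization spike-in probe sets, moved the median of all genes from -0.05 to 0.07 and 0.10. It moved the share of higher genes among all calls from 56.9% to 70.9% and 74.2%. These spike-ins are controls of the hybridization and do not give mRNA per cell. Under both centrings 7 of the 10 transporter genes were still called lower, with medians of -1.07 and -1.04. SLC7A5 (-0.49 and -0.46) and SLC38A2 (-0.58 and -0.55) were the genes that fell short of the fold minimum there.

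**Figure D5:**
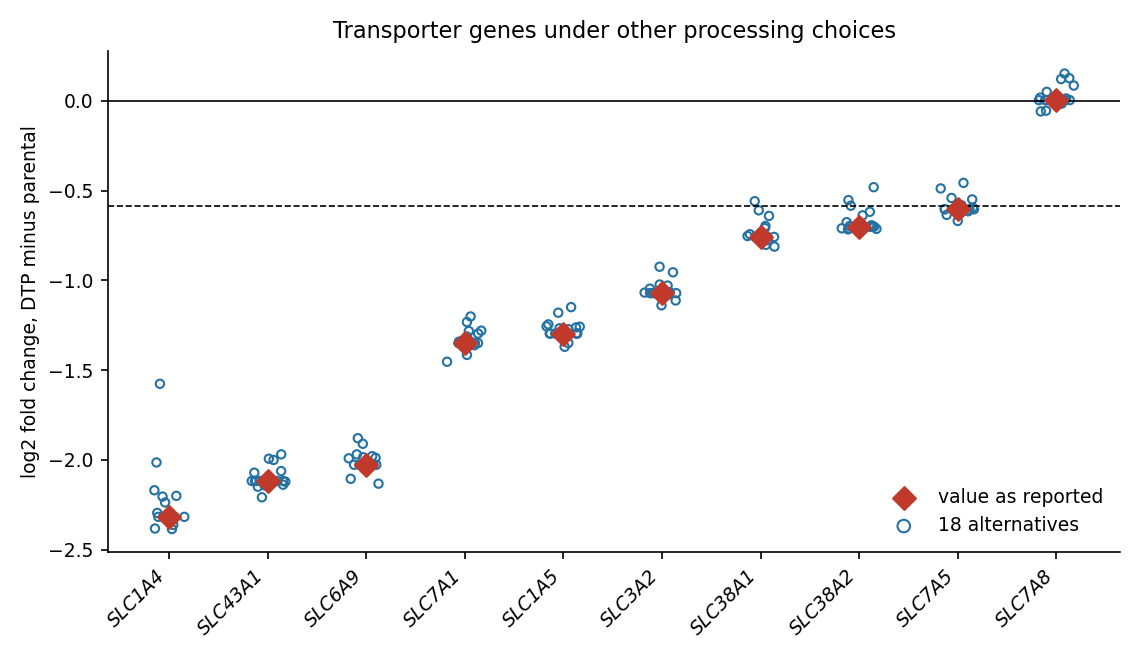
Log2 fold change (y axis, DTP minus parental) of each transporter gene as reported (red diamonds) and under 18 alternative settings (blue circles), with a dashed line at a fold of 1.5. Circles lie above that line for SLC38A1, SLC38A2, SLC7A5 and SLC7A8, and none do for the other 6 genes.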

How the data were processed

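The authors hybridized RNA to Affymetrix HG-U133 Plus 2.0 arrays and deposited log2 values for 54675 probe sets, background-corrected, quantile-normalized and summarized by RMA with the affy package, with no version stated in the sources read. RMA gives no detection calls, and arrays have no read depth, so the 3 arrays per group limit the precision. GEO's platform annotation gave 41091 probe sets exactly 1 symbol, 1801 several and 11721 none, after 62 controls were left out. Where the gene identifier given there was found in RefSeq, the RefSeq symbol replaced the annotated one. A gene with several probe sets (10523 genes) was represented by the one with the highest mean over all 6 arrays, avoiding _x_at sets where possible. DTP and parental arrays were compared with limma 3.58.1 in R 4.3.3 (lmFit, eBayes, two-sided, Benjamini-Hochberg), as named in the study's methods, at adjusted p under 0.05 and fold over 1.5. The script was tested on simulated data with known changes.

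All members were described, and in each other list up to 4 called genes with the largest change (or, where none was called, up to 2 with the smallest p), plus ATF4, MYC, NEDD4L and SLC7A11. The members and lists were chosen with earlier results of these data known, so their counts are descriptions. Alternatives were leaving out each array, the replicate number as a block, 3 other scalings, a filter on dim probe sets, intensity trend, array weights, the methods' t-test, other fold minimums and other choices of probe set. Whether the replicate numbers pair the samples was checked by correlating deviations from group means. The sequence of the remaining CACGTG match is not reported here.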

Additional observations from a re-analysis of the deposited data

How the results depend on the processing

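The count of transporter genes called lower was 8 or 9 when an array was left out, 7 under either centring, 8 with cyclic loess, 8 with the mean of all probe sets, 8 with the brightest probe set of any kind and 6 at a fold minimum of 2; it was 9 under the other settings, and 0 genes were called higher under any of the 18. Same-numbered arrays did not deviate together (correlations of -0.12, 0.02 and -0.06), which gave no sign that the numbers pair the samples. With 3 arrays per group this check cannot exclude pairing. With the replicate block 9 transporter genes were again called lower, among 1212 lower and 1597 higher genes. Spike-in centring left 795 genes lower, against 1212, and called 4 mitochondrial carriers higher, against 2. Ribosomal protein centring left 868 genes lower and 2114 higher, and spike-in centring 2290 higher. At a fold minimum of 2, 431 genes were lower and 679 higher in all, 12 transporter probe sets were lower, against 19, 4 amino acid enzymes lower, against 7, 1 mitosis gene lower, against 7, 1 lysosomal or mTORC1 gene higher, against 8, 0 mitochondrial carriers higher and 1 regulator higher. With no fold minimum, 4754 genes were lower and 4043 higher, 5 other transporters lower, 4 lysosomal or mTORC1 genes lower and 16 higher, 1 mitochondrial carrier lower and 6 higher, 5 enzymes higher and 13 mitosis genes lower. With the mean of probe sets, 4 lysosomal or mTORC1 genes, 1 mitochondrial carrier and 1 regulator were higher and 4 mitosis genes lower. With the brightest probe set 1 mitochondrial carrier was higher, and the log2 fold change of SFXN1 turned to -0.069, against 0.72. Regulators called higher numbered 1 to 2 when an array was left out, with 1 without DTP replicate 3, and 1 with array weights. Changes in the counts under another fold minimum follow from that minimum; the cause of the others was not tested.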

Other observations

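Amino acid metabolism inside the cell was described by 3 further lists, whose counts stand beside 6.13% called lower and 8.08% called higher over all genes. Of 18 measured enzymes that use glutamine, asparagine, arginine, proline or branched-chain amino acids, 7 were called lower in DTPs and 1 higher. Their median was -0.23 on the log2 scale, against -0.05 over all genes. ASNS, which makes asparagine, measured 10.48, 10.62 and 10.71 in DTPs, against 13.36, 13.36 and 13.28 in parental cells, and was 6.63-fold lower in DTPs (limma adjusted p = 3.27e-11). The other probe set of ASNS gave -0.29 and was not called, and the mean of both gave -1.51. ARG2, the mitochondrial arginase, was 5.98-fold lower in DTPs and GOT1, the cytosolic aspartate aminotransferase, 3.70-fold lower (limma adjusted p = 6.21e-11 and 2.33e-09). With the mean of its 2 probe sets, both called lower, the log2 fold change of ARG2 was -1.59 in place of -2.58. GLUL, which makes glutamine, went the other way. It measured 12.70, 12.78 and 12.73 in DTPs, against 11.18, 11.01 and 11.05 in parental cells, and was 3.16-fold higher in DTPs (limma adjusted p = 1.28e-09).

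Of 32 measured genes of lysosomal amino acid transport and of sensing to mTORC1, 8 were called higher in DTPs and 2 lower, and the median was 0.20 on the log2 scale. SESN2, a leucine sensor that restrains mTORC1, measured 9.31, 9.24 and 9.48 in DTPs, against 12.25, 12.35 and 12.38 in parental cells, and was 7.90-fold lower in DTPs (limma adjusted p = 2.41e-11). DDIT4, another inhibitor of mTORC1, was 2.46-fold lower in DTPs (limma adjusted p = 2.64e-07). FNIP2, a partner of folliculin, had a log2 fold change of 1.71, and CASTOR2, a relative of the arginine sensor CASTOR1, one of 0.99 (limma adjusted p = 1.86e-09 and 2.81e-07). The mean of the 4 probe sets of FNIP2, of which 3 were called higher, gave 0.93. Of 11 mitochondrial amino acid carriers, 2 were called higher and 0 lower: SFXN3 at 0.96 and SFXN1, a serine carrier, at 0.72, although the brightest probe set of SFXN1 of any kind gave -0.069.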
